A study of Mus musculus with 6 samples.

Results

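The Sprouty, Spred and MAPK phosphatase feedback genes are a set of 10 genes that ERK signalling switches on and that mostly restrain it. They were taken by name after gene identifiers were matched to mouse symbols: Spry1, Spry2, Spry4, Spred1, Spred2, Spred3, Dusp4, Dusp5, Dusp6 and Etv5. All 10 matched a single identifier among the 55487 in the tables, and all 10 passed the expression filter that left 15707 genes for testing.

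RNA was sequenced from non-myocytes of digested C57BL/6 mouse hearts that had been concentrated on magnetic Cd11b beads, Cd11b being a surface integrin of myeloid cells. There were 3 KO pools (Egfr mKO, labelled as a myeloid-specific EGFR -/- genotype) and 3 WT pools (Egfr f/f, floxed alleles), each from 5 or 6 hearts. The sources used here do not give the driver of the deletion or the sex and age of the mice. Each library is a pool, and the tests therefore speak of variation among pools rather than among mice.

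Growth factor receptors such as EGFR signal through Ras, Raf, MEK and ERK. Sprouty and Spred proteins act near the top of that cascade on Ras and Raf, Dusp proteins remove the activating phosphates from ERK at its end, and Etv5 is a transcription factor that carries the signal to target genes. Because ERK induces these genes, their transcripts are widely read as a gauge of ERK activity in a tissue. In vessel walls Sprouty genes are known to be induced by angiogenic and fibroblast growth factors as well.

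Gene totals were 25199667 to 27485129 reads in KO libraries and 17780707 to 27104205 in WT libraries. Levels are TMM-scaled CPM, that is reads of a gene divided by the scaled library total, given as mean ± SD over 3 pools. Egfr was at 18.5, 15.9 and 17.4 CPM in KO pools 1, 2 and 3, against 54.7, 43.0 and 44.7 CPM in WT pools 1, 2 and 3, with a log2 fold change of KO over WT of -1.46 (SE 0.13, edgeR adjusted p = 0.0449). Lyz2, a lysozyme gene of macrophages and neutrophils, was at 18.6 ± 1.06 CPM in KO and 5034 ± 1449 CPM in WT (edgeR adjusted p = 0.000178). Itgam, which encodes Cd11b, was at 149 ± 28.1 CPM in KO and 104 ± 31.6 CPM in WT (edgeR adjusted p = 0.341). All 15 macrophage markers were counted in every library, and so were all 22 endothelial, 13 mural and 16 fibroblast markers. WT pool 1 stood apart from its group: by chi-square of the gene counts, divided by the degrees of freedom, its distance was 40.6 to 57.8 to the KO libraries and 76.3 and 83.2 to the other WT libraries. KO pool 1 and WT pool 1 carried Y-linked Ddx3y at 136 and 138 CPM, and the other 4 pools were at 0.313 CPM or less. X-linked Xist went the other way, at 0.153 CPM in KO pool 1 and 0.269 CPM in WT pool 1. In the other 4 pools Xist was at 344 to 602 CPM.

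All 10 genes are protein-coding, and positions are those of GRCm38 (GENCODE M21). Spry1 (ENSMUSG00000037211) lies at chr3:37639947-37644598 on the plus strand, Spry2 (ENSMUSG00000022114) at chr14:105891947-105896819 on the minus strand and Spry4 (ENSMUSG00000024427) at chr18:38586247-38601415 on the minus strand. Spred1 (ENSMUSG00000027351) lies at chr2:117121374-117182279 on the plus strand, Spred2 (ENSMUSG00000045671) at chr11:19924375-20024026 on the plus strand and Spred3 (ENSMUSG00000037239) at chr7:29158829-29170411 on the minus strand. Dusp4 (ENSMUSG00000031530) lies at chr8:34807297-34819894, Dusp5 (ENSMUSG00000034765) at chr19:53529109-53542431 and Dusp6 (ENSMUSG00000019960) at chr10:99263231-99267489, all on the plus strand, and Etv5 (ENSMUSG00000013089) at chr16:22381309-22439719 on the minus strand. Exons of 3 of them overlap a gene on the other strand, and the strand setting of the counting is unknown here: Spry1 shares 710 bases with Gm42922, which had 1 to 11 reads per library, Dusp5 shares 547 bases with AC137853.2, which had 5 to 9 reads, and Spred3 shares 202 bases with Ggn, which had 30 to 106 reads.

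Of the 10 feedback genes, 0 passed the threshold in edgeR's quasi-likelihood test (adjusted p under 0.05 over all genes), where 0.0127% of all genes passed, namely Lyz2 and Egfr, both lower in KO. With p unadjusted and under 0.05, Spry1, Spry2, Spry4 and Spred2 (4 of the 10) were lower in KO and 0 were higher. Over all genes 10.6% were lower and 4.77% higher at that level. In these 4 genes the highest KO pool was still under the lowest WT pool, as it was for 10.1% of all genes. Dusp4 alone among the 10 had every KO pool above every WT pool, as did 9.59% of all genes. DESeq2 called 3 of the 10 lower (Spry1, Spry4 and Spred2), beside 3.97% of all genes, and limma-voom called 0, beside 0.00637% of all genes. Negative log2 fold changes were found for 8 of the 10, with a median of -0.18, against 49.2% of all genes and a median of 0.01.

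**Figure D1:**
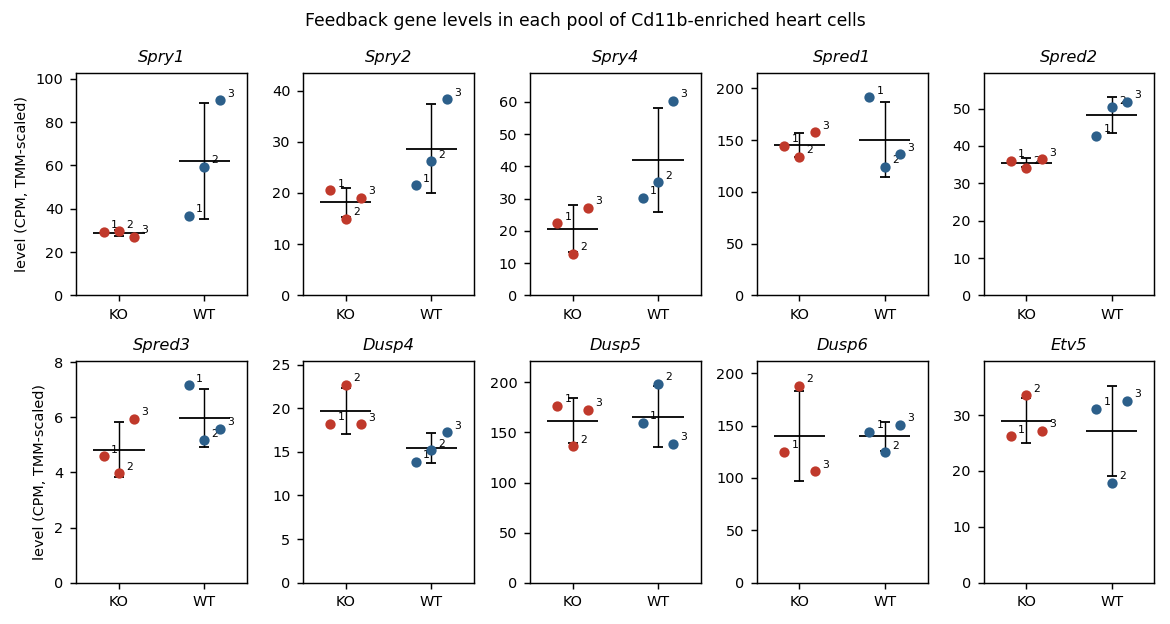
TMM-scaled level in CPM of each of the 10 genes in the 3 KO pools (left) and 3 WT pools (right), with pool numbers beside the points and bars for the mean ± SD. The KO points of Spry1, Spry2, Spry4 and Spred2 all sit below the WT points, while those of Spred1, Dusp5, Dusp6 and Etv5 mix with them.

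The Sprouty genes encode intracellular inhibitors that block growth factor receptor signalling to Ras and Raf. Spry1 was at 29.3, 29.7 and 27.1 CPM in KO pools 1, 2 and 3, against 36.8, 59.4 and 90.1 CPM in WT pools 1, 2 and 3. The KO pools were tightly grouped (coefficient of variation 4.94%), whereas the WT pools spread widely (43.1%) and WT pool 1 lay nearest to KO. Its log2 fold change of KO over WT was -1.11 (SE 0.28, 95% confidence interval -1.77 to -0.45, edgeR adjusted p = 0.194), so the KO mean was 46.2% of the WT mean. Spry1 passed as lower with DESeq2 (adjusted p = 0.00869), in edgeR without the expression filter (adjusted p = 0.00696) and in edgeR without WT pool 1 (adjusted p = 0.0145, log2 fold change -1.38). Beside those calls, 2.22% of all genes were called lower without the filter and 5.97% without WT pool 1. In the 4 pools without Y-linked expression Spry1 was the 1 member called lower (adjusted p = 0.0407), beside 2.18% of all genes. Leaving out WT pool 3, the pool with the highest Spry1, brought the log2 fold change to -0.74 (edgeR adjusted p = 0.441).

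Spry4 was at 22.3, 12.8 and 27.1 CPM in KO pools 1, 2 and 3, against 30.3, 35.1 and 60.2 CPM in WT pools 1, 2 and 3. The groups stayed apart, but the highest KO pool and the lowest WT pool were close. For Spry4 this change was -1.01 on the log2 scale (SE 0.33, 95% confidence interval -1.78 to -0.25, edgeR adjusted p = 0.238). It passed with DESeq2 (adjusted p = 0.0496) and in edgeR without the filter (adjusted p = 0.0257), and without WT pool 3 the log2 fold change was -0.65. Spry2, the Sprouty that also binds the ubiquitin ligase Cbl, was at 20.5, 15.0 and 19.1 CPM in KO, against 21.5, 26.2 and 38.3 CPM in WT. KO pool 1 and WT pool 1 nearly met, and the log2 fold change of -0.65 (SE 0.23, 95% confidence interval -1.18 to -0.12) did not pass (edgeR adjusted p = 0.250). Without WT pool 3 it was -0.38.

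In CPM per kilobase of exon (RPKM), the 3 Sprouty genes summed to 24.6, 20.1 and 24.2 in KO pools, against 29.3, 40.4 and 62.0 in WT pools. Spry1 gave 43.5 ± 6.47% of that sum in KO and 47.9 ± 4.11% in WT, and Spry4 gave 18.7 ± 5.07% in KO and 20.1 ± 1.74% in WT. The share of Spry2 was 37.9 ± 2.08% in KO and 31.9 ± 2.84% in WT, and all 3 KO pools exceeded all 3 WT pools.

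The Spred genes encode membrane-bound relatives of the Sprouty proteins, and Spred1 is known to bring neurofibromin, a Ras inactivator, to the membrane. Spred2 was at 35.9, 34.1 and 36.4 CPM in KO pools 1, 2 and 3, against 42.7, 50.3 and 51.7 CPM in WT pools 1, 2 and 3. It had the smallest edgeR p of the 10 genes (unadjusted p = 0.00448, adjusted p = 0.193), ahead of Spry1 (unadjusted p = 0.00468), with a log2 fold change of -0.44 (SE 0.11, 95% confidence interval -0.70 to -0.18). The size is modest, with the KO mean at 73.6% of the WT mean, but the pools of each group lay close together. It passed with DESeq2 (adjusted p = 0.0267) and in edgeR without WT pool 1 (adjusted p = 0.0369). On chromosome 11, 3006216 bases separate Spred2 from Egfr, the gene targeted in KO. Whether this position bears on the Spred2 difference was not tested.

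The groups overlapped for Spred1. It was at 145, 134 and 158 CPM in KO pools, against 191, 124 and 137 CPM in WT pools, and the KO values fell inside the WT range. Spred1 had a log2 fold change of -0.05 (SE 0.17), with a 95% confidence interval of -0.45 to 0.35 (edgeR adjusted p = 0.919), and it was 0.16 without WT pool 1. Spred3, a relative with weaker activity, was scarce, with 101 to 153 reads in KO libraries and 99 to 186 in WT libraries. For Spred3 the change was -0.31 on the log2 scale (SE 0.23, edgeR adjusted p = 0.576), with 4.58, 3.97 and 5.94 CPM in KO against 7.16, 5.16 and 5.59 CPM in WT.

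**Figure D2:**
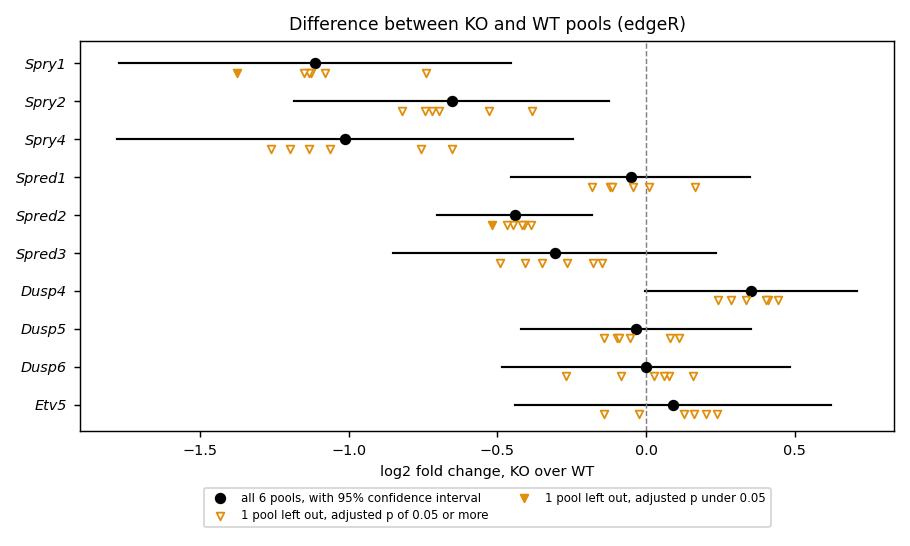
Log2 fold change of KO over WT from edgeR for each gene, as a black point with its 95% confidence interval over all 6 pools, and as triangles for the 6 fits that leave out 1 pool, filled where the adjusted p was under 0.05. The 3 Sprouty genes and Spred2 lie left of 0 in every fit, and filled triangles appear only for Spry1 and Spred2 without WT pool 1.

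The Dusp genes encode phosphatases that inactivate MAP kinases, Dusp5 for ERK in the nucleus, Dusp6 for ERK in the cytoplasm, and Dusp4 for several MAP kinases in the nucleus. Dusp4 was at 18.2, 22.7 and 18.2 CPM in KO pools, against 13.9, 15.2 and 17.2 CPM in WT pools. It was higher in every KO pool, opposite to the Sprouty genes, but the log2 fold change of 0.35 (SE 0.15, 95% confidence interval -0.0032 to 0.71) did not pass (edgeR adjusted p = 0.330). Its sign was positive in all 17 other fits, with values of 0.24 to 0.44.

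Dusp6 and Dusp5 differed little between the group means. Dusp6 was at 125, 188 and 106 CPM in KO pools, against 144, 125 and 151 CPM in WT pools, and KO pool 2 was the highest of all and KO pool 3 the lowest. Its log2 fold change rounds to 0.00 (SE 0.21, edgeR adjusted p = 1.00), and the 95% confidence interval of -0.48 to 0.48 leaves room for a change of up to 1.40-fold either way. Dusp5 was at 176, 136 and 173 CPM in KO pools, against 160, 198 and 139 CPM in WT pools, with overlapping groups, a log2 fold change of -0.03 (SE 0.17) and a 95% confidence interval of -0.42 to 0.35 (edgeR adjusted p = 0.945). The summed RPKM of the 3 Dusp genes was 117 ± 6.53 in KO and 117 ± 7.65 in WT.

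Etv5, a transcription factor of the ETS family that ERK signalling induces, was at 26.2, 33.5 and 27.2 CPM in KO pools, against 31.1, 17.9 and 32.6 CPM in WT pools. WT pool 2 was the low one, and the other 5 pools overlapped. Etv5 had a log2 fold change of 0.09 (SE 0.23, 95% confidence interval -0.44 to 0.62, edgeR adjusted p = 0.888), and it was -0.14 without WT pool 2.

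Per exon length Dusp5 and Dusp6 had the highest levels of the 10 genes and Dusp4 one of the lowest. Dusp5 had a mean of 66.2 RPKM over the 6 pools (55.1 to 80.2) and Dusp6 44.6 RPKM (34.0 to 60.1), and these ranges overlapped. Spred1 followed at 21.8 RPKM (18.3 to 28.2), below Dusp6 in every pool. Then came Spry1 at 15.6, Spry2 at 11.2, Spred2 at 9.07, Etv5 at 6.85, Spry4 at 6.58 and Dusp4 at 6.41 RPKM, and from Spred1 to Dusp4 each range overlapped the next. Spred3 was far lower, with no overlap with Dusp4, at 0.868 RPKM (0.638 to 1.15), or 1.33 RPKM by its longest single transcript. The KO and WT pools put Spry1 in different places, at 9.87 ± 0.488 RPKM in KO and 21.4 ± 9.20 RPKM in WT.

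**Figure D3:**
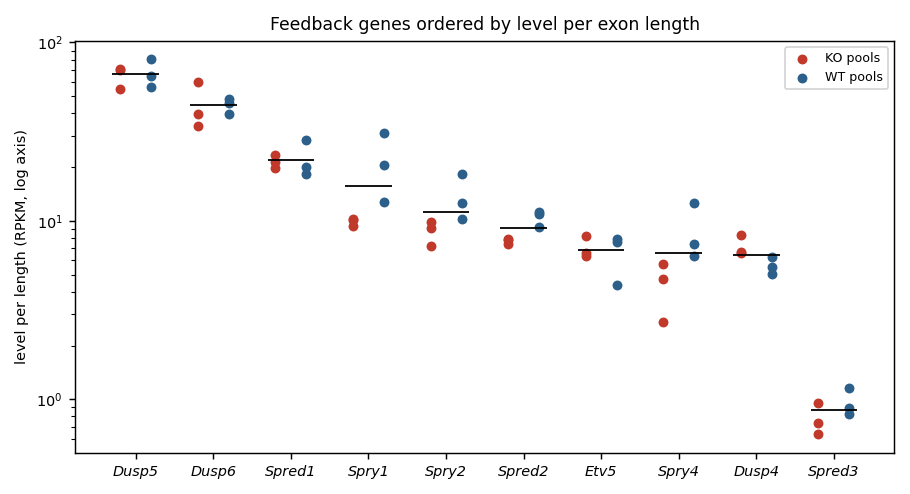
Level per kilobase of exon (RPKM, log axis) of the 10 genes in KO pools (left of each pair) and WT pools (right), ordered by the mean over 6 pools, drawn as a line. Dusp5 and Dusp6 lead at 66.2 and 44.6 RPKM and Spred3 is lowest at 0.868 RPKM.

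Promoter sequence is shown for 3 genes that lay lower in every KO pool and for Dusp5, which did not, so that the stretches before their starts can be compared. RefSeq promoter windows (GRCm38.p6) were found for 8 of the 10 genes. Sequences run 5′ to 3′ on the gene's strand and stop before the first start annotated by RefSeq or GENCODE, which is 67 bases short of the RefSeq start for Spred2 and 36 for Dusp5. Capitals mark GC boxes (GGGCGG) and CArG boxes, the site of serum response factor.

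Spry1, chr3:37639697-37639946, plus strand: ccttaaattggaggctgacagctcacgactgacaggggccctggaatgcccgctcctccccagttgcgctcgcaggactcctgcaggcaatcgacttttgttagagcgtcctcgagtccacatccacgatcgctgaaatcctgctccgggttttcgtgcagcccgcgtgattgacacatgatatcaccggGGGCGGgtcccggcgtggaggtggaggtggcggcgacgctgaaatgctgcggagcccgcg

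Spry2, chr14:105896820-105897069, minus strand: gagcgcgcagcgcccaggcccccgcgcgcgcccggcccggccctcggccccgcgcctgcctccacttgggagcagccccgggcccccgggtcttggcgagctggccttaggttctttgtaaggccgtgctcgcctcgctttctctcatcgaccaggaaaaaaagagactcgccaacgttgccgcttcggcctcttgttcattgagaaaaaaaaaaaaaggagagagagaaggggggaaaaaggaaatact

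Spred2, chr11:19924192-19924374, plus strand: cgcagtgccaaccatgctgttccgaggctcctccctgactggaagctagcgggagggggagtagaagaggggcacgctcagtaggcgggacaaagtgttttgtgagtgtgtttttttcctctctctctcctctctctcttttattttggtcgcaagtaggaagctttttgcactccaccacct

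Dusp5, chr19:53528895-53529108, plus strand: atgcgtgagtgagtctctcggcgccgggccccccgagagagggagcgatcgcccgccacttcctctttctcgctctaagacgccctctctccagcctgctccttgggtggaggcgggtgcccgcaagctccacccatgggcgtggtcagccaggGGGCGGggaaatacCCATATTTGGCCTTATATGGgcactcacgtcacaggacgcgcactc

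The Dusp5 stretch holds a pair of adjoining CArG boxes, whose first bases lie 82 and 72 bases before the RefSeq start, and a GC box. CArG boxes on either strand are in 1.47% of all 32851 windows of 250 bases before a start, and among the 8 genes only Dusp5 has one. The Spry1 stretch holds a GC box 60 bases before the start, and the Spry2 stretch holds none of the motifs searched. GC boxes are in the windows of 6 of the 8 genes (Spry1, Spred1, Spred2, Spred3, Dusp5 and Etv5), against 32.7% of all windows. An ETS core (CGGAAG), the kind of site that Etv5 binds, is in the windows of Spred1, Spred2 and Dusp6, against 13.6% of all windows, and that of Spred2 overlaps a GC box, both beyond the end of the stretch printed here. The AP-1 motif (TGANTCA) and the CRE motif (TGACGTCA), at 6.75% and 1.55% of windows, are in none of the 8. These are matches of letters on both strands, not measured binding.

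Vessel wall markers, like the Sprouty genes and Spred2, were lower in every KO pool than in any WT pool by their summed level. Summed over 22 endothelial markers, the level was 2027 to 2688 CPM in KO pools and 3626 to 5972 CPM in WT pools, and all 22 had negative log2 fold changes (median -1.08). Summed over 13 mural markers it was 1646 to 2459 CPM in KO and 2655 to 4370 CPM in WT. For 16 fibroblast markers it was 4297 to 5934 CPM in KO and 5018 to 16250 CPM in WT, with overlapping groups, and all 16 were negative. WT pool 3, highest in all 3 Sprouty genes, was also the highest in all 3 marker lists, and no marker of these lists was at 0 in any library. Negative log2 fold changes were also found for all 12 cardiomyocyte, all 7 Schwann and all 6 mesothelial markers and for all 5 erythroid markers tested, and the summed erythroid level was 36.2 to 85.0 CPM in KO pools and 75.8 to 1881 CPM in WT pools, with WT pool 1 the highest. Negative values were also found for 6 of 8 T cell, 2 of 7 monocyte and 1 of 7 neutrophil markers. Over all genes 49.2% were negative. The summed level of 15 macrophage markers was 15820 to 17340 CPM in KO and 9012 to 16790 CPM in WT, and that of 9 B cell markers was 1626 to 2407 CPM in KO and 1219 to 1399 CPM in WT. Their part in the Sprouty and Spred2 differences was not tested. The relative levels that follow are a description and test no cause. In such bulk samples fewer cells of a type and less RNA per cell cannot be told apart.

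Relative to the mean log2 level of the endothelial markers, Spry1 lay between -1.65 and -1.06 in KO pools and between -1.62 and -1.035 in WT pools, with overlapping pools and means of -1.27 in KO and -1.24 in WT. Spry4 likewise had means of -1.79 in KO and -1.78 in WT with overlapping pools. Measured against these markers, the KO and WT means of Spry1 and of Spry4 were nearly equal. This restates that the log2 fold changes of Spry1 (-1.11) and Spry4 (-1.01) were close to the list's median (-1.08). Spry2 had means of -1.92 in KO and -2.29 in WT, and Spred2 of -0.97 in KO and -1.51 in WT, and for both every KO pool lay above every WT pool, as also for Spred1, Spred3, Dusp4, Dusp5 and Etv5. Relative to the mural markers Spry2, Spred2, Dusp4, Dusp5 and Etv5 were higher in every KO pool and the groups overlapped for the other members, and relative to the fibroblast markers Dusp4 was higher in every KO pool and the groups overlapped for all others. Spry1 and Spry4 were nearly equal on the fibroblast scale too. There Spry1 had means of -2.07 in KO and -2.02 in WT, and Spry4 of -2.59 in KO and -2.55 in WT. On the mural scale Spry1 had means of -1.33 in KO and -1.165 in WT, and Spry4 of -1.85 in KO and -1.70 in WT. The mean log2 levels of the lists themselves were 6.1 in KO and 7.1 in WT (endothelial), 6.2 and 7.0 (mural) and 6.9 and 7.9 (fibroblast). A gene at equal CPM in both groups therefore comes out higher in KO on these scales. The share of all genes separated in this way was not computed. Relative to the macrophage markers, Spry1 had means of -4.59 in KO and -3.12 in WT, Spry2 of -5.24 in KO and -4.17 in WT, and Spred2 of -4.29 in KO and -3.39 in WT, with every KO pool under every WT pool in each. The same held for Spry4 (-5.11 in KO and -3.65 in WT), Spred1 (-2.27 and -1.78) and Spred3 (-7.06 and -6.31). The groups overlapped for Dusp4, Dusp5, Dusp6 and Etv5. The mean log2 level of the macrophage list was itself 9.46 in KO and 8.99 in WT, with overlapping pools. A gene at equal CPM in both groups therefore has a lower mean in KO on this scale. Spred1, lower here in every KO pool, had a log2 fold change of only -0.05. On this scale too, the share of all genes separated was not computed. Which cells carried the transcripts was not measured.

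**Figure D4:**
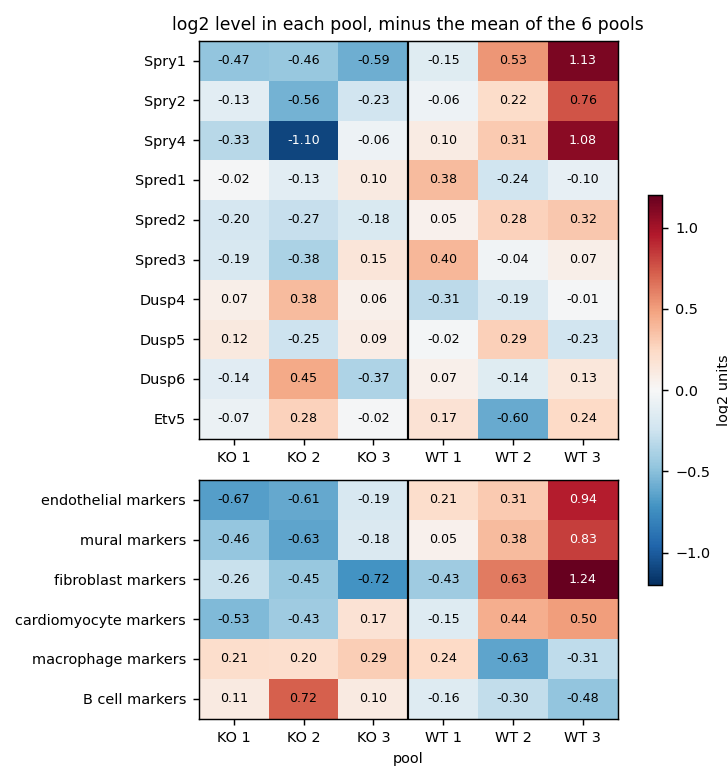
Log2 level in each pool minus the mean of the 6 pools, for the 10 genes (upper panel) and for the mean of 6 marker lists (lower panel), with KO pools left of WT pools. Spry1, Spry2 and Spry4 are highest in WT pool 3 (1.13, 0.76 and 1.08), as are the endothelial, mural and fibroblast lists, while Dusp5, Dusp6 and Etv5 show no such order.

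The genes nearest to each member in profile were found by the root mean square difference of centred log2 levels over the 6 libraries, among 11028 genes at a mean of 5 CPM or more, of which the 10755 with a given name could be named. Nearest to Spry1 were Rbms3 (difference 0.0438 log2 units, log2 fold change -1.12) and Arhgap28 (0.0711, -1.05). Nearest to Spry4 were Adamts1, a secreted protease (0.0588, -1.04), and Ano1, a chloride channel (0.104, -0.94). Spry2 was nearest to Atf5 (0.0630) and Bace2 (0.0635), and Spred2 to Cep85l (0.0306) and Txlnb (0.0410). Spred1 was nearest to Prdm1 (0.0298) and Slc12a5 (0.0495), and Spred3 to Hk2 (0.0384) and Tsc22d2 (0.0533). Dusp4 was nearest to Exosc3 (0.0390) and Nudt19 (0.0623), Dusp5 to Actr5 (0.0595) and Acat2 (0.0700), Dusp6 to Stoml1 (0.0667) and Lrrc14 (0.0887), and Etv5 to Ccdc112 (0.0632) and Alg3 (0.0898). The members were not each other's closest matches: for Spry1 the nearest was Spry2, at rank 657 (0.290), and for Spry4 it was Spry2, at rank 282 (0.289). Closest among the members were Spred1 and Spred3 (0.166), at rank 189 for Spred3 and 937 for Spred1.

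The rest of the ERK pathway was read from lists of genes by role. Among 25 genes of the cascade itself, from Grb2 to ERK and its kinases, 0 passed in edgeR, 12 were negative and 13 positive, and the median was 0.00. With p unadjusted and under 0.05 there were 1 lower and 2 higher, beside 10.6% and 4.77% of all genes. DESeq2 called 1 lower, beside 3.97% of all genes, and limma-voom called 0. Rps6ka2, a kinase activated by ERK, had the smallest p of the list, at 20.1 ± 1.06 CPM in KO and 34.0 ± 7.60 CPM in WT (log2 fold change -0.76, edgeR adjusted p = 0.179). The adaptor Grb2 (267 ± 7.45 CPM in KO and 205 ± 34.4 CPM in WT, log2 fold change 0.38) and the MEK gene Map2k1 (0.25) were higher in every KO pool and did not pass.

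Receptors upstream of ERK had the lowest median of the pathway lists, -0.56 over 17 genes, 14 of them negative. Only Egfr of them passed in edgeR, where 8 were lower and 0 higher with p unadjusted and under 0.05, beside 10.6% and 4.77% of all genes. DESeq2 called 8 lower, beside 3.97% of all genes, and limma-voom called 0. Of the VEGF receptor genes, Kdr was at 130 ± 25.3 CPM in KO and 333 ± 95.8 CPM in WT (log2 fold change -1.36, edgeR adjusted p = 0.152), and Flt1 at 153 ± 26.4 CPM in KO and 331 ± 83.4 CPM in WT (-1.12, adjusted p = 0.158). Tek, the angiopoietin receptor, had -1.08. Kdr, Flt1 and Tek also stand in the endothelial list, Pdgfrb in the mural list, Pdgfra in the fibroblast list and Csf1r in the macrophage list. All of these except Csf1r are among the 8 receptors that were lower with p unadjusted and under 0.05. Csf1r had a positive log2 fold change and overlapping groups.

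Other feedback and ETS target genes had a median of -0.21 over 19 genes, 14 of them negative, and 0 passed in edgeR. With p unadjusted and under 0.05, 3 were lower, beside 10.6% of all genes. DESeq2 called 2 lower, beside 3.97% of all genes, and limma-voom called 0. Il17rd, an inhibitor of FGF signalling also called Sef, was at 8.38 ± 1.16 CPM in KO and 13.8 ± 3.08 CPM in WT (log2 fold change -0.72, edgeR adjusted p = 0.223). The receptor gene Epha4 had -0.90, Lrig1, an inhibitor of EGFR family receptors, -0.81, and Epha2 -0.52. Among 12 other dual-specificity phosphatases 8 were negative and 0 passed in edgeR, also with p unadjusted and under 0.05, in DESeq2 or in limma-voom, with a median of -0.10, led by Dusp19 (-0.67), Dusp26 (-0.69), Dusp22 (0.15) and Dusp16 (-0.15).

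Partners of Sprouty and Spred proteins had a median of 0.04 over 12 genes, 6 of them negative, and 0 passed in edgeR. With p unadjusted and under 0.05, 1 was lower and 1 higher, beside 10.6% and 4.77% of all genes. DESeq2 called 1 lower, beside 3.97% of all genes, and limma-voom called 0. Cav1, the caveolin that Sprouty proteins bind and that endothelial cells express abundantly, was at 200 ± 39.7 CPM in KO and 389 ± 120 CPM in WT (log2 fold change -0.96, edgeR adjusted p = 0.193). Tesk1, a kinase that binds Sprouty, had 0.24, and Nf1, which encodes neurofibromin, -0.26. Immediate early genes, which ERK signalling induces within minutes, had a median of 0.13 over 20 genes, 8 of them negative, and 0 passed in edgeR, also with p unadjusted and under 0.05, in DESeq2 or in limma-voom. Those with the smallest p were Nr4a2 (-0.36), Klf6 (0.31), Nr4a3 (-0.29) and Egr3 (-0.34).

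**Figure D5:**
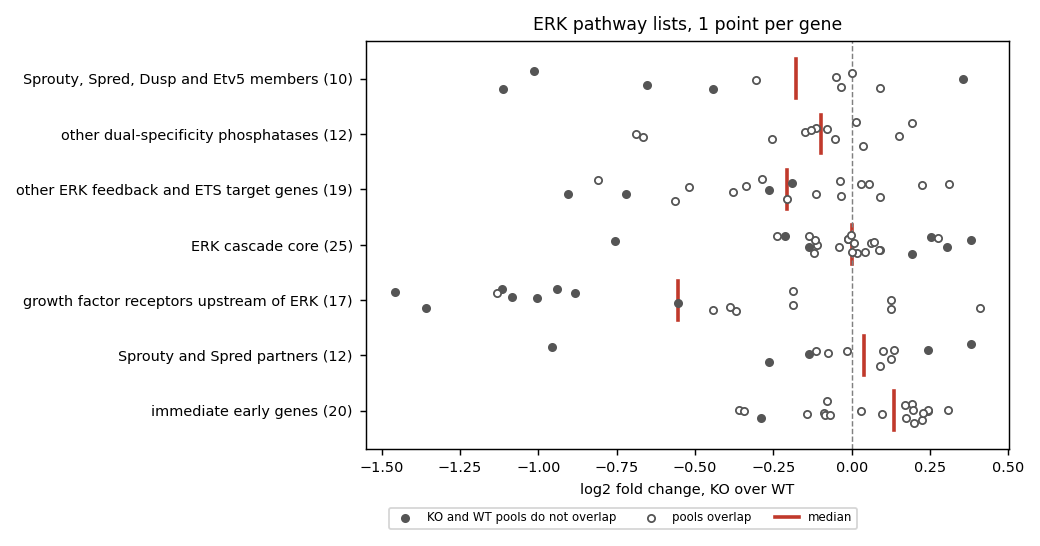
Log2 fold change of KO over WT for each gene of the feedback set and of 6 ERK pathway lists (number of genes tested in brackets), with filled points where the KO and WT pools do not overlap and a red line at the median. The receptor list has the lowest median (-0.56), and the cascade list centres on 0.00.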

How the data were processed

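Total RNA was isolated on RNeasy columns and libraries kept strand information, per the labels' protocols. The authors deposited raw read counts, 1 table per library with Ensembl gene identifiers. The submitters' processing notes name STAR, HTSeq, DESeq2 and GRCm38 without roles or versions. The sources used here give no annotation release or strand setting for the counting. The 5 counters that name no gene held 15.4% to 18.8% of counted reads and were left out.

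Symbols matched 55141 of 55487 identifiers. edgeR 4.0.16 in R 4.3.3 was used with filterByExpr (minimum count 10), TMM scaling and the two-sided quasi-likelihood F test of KO against WT, with Benjamini-Hochberg adjustment over 15707 genes and a threshold of 0.05. SE is the size of a change over the square root of F. RPKM used the union of GENCODE M21 exons. Marker levels are means of log2(CPM + 0.5). With 3 pools a side the smallest two-sided exact permutation p is 0.1, so none is reported.

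Other settings were DESeq2 1.42.0 on the same genes, limma-voom (limma 3.58.1), other scalings and filters, a 1.2-fold minimum change, a replicate block and each pool left out. Bias-adjusted deviances, both fits on Y-linked expression and levels relative to markers were added after seeing the data. The procedure was tested on simulated data. The members and lists were chosen with earlier results of these data known. Text names all 10 members, up to 4 genes per list by smallest p at a mean of at least 1 CPM, and the 2 genes nearest each member in profile. Receptor genes that also stand in a marker list are named as well. A result this rule would name in the cascade list is not reported here. Figures were drawn with matplotlib 3.10.9. No pair of libraries looked like a repeat deposit (chi-square per degree of freedom at least 37.4), and all 6 were kept. Intervals cover the spread between pools.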

Additional observations from a re-analysis of the deposited data

How the results depend on the processing

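All 17 other fits gave Spry1, Spry2, Spry4, Spred2 and Spred3 negative values and Dusp4 positive ones. Other settings changed how many of all genes passed: 785 with DESeq2, 782 without the filter, 407 in the 4 pools without Y-linked expression, and 1 with limma-voom or a 1.2-fold minimum; the cause was not tested. Members passing numbered 3 with DESeq2 (Spry1 -1.12, Spry4 -1.02, Spred2 -0.45), 2 without the filter (Spry1 -1.11, Spry4 -1.01) and 1 in those 4 pools (Spry1 -1.43). Near 0, signs turned for Dusp6 with upper-quartile scaling (0.018) and no filter (0.00061), and in the 4 pools for Dusp6 (0.064) and Spred1 (0.13).

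Leaving out 1 pool gave 1 to 1338 genes and 0 to 2 members past the threshold, the upper values without WT pool 1. Log2 fold changes ranged from -1.38 to -0.74 for Spry1, -0.52 to -0.39 for Spred2, -0.18 to 0.16 for Spred1, -0.14 to 0.11 for Dusp5, -0.27 to 0.16 for Dusp6 and -0.14 to 0.24 for Etv5. Called genes ranged from 0 to 3 for other feedback and ETS targets, 0 to 2 for the cascade, 0 to 8 for receptors and 0 to 2 for partners.

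With all pools, DESeq2 called 2 feedback, 1 cascade, 8 receptor and 1 partner gene, and edgeR without the filter 1, 1, 7 and 1 in that order. Receptors called numbered 6 in the 4 pools, and 0 with limma-voom, the 1.2-fold minimum or the replicate block. Same-numbered pools did not all deviate together (correlations of 0.15, -0.19 and 0.05), and the labels give no pairing; KO pool 1 and WT pool 1 shared Y-linked expression. With the replicate block 3 genes passed, and Spry1 was at -1.02 (edgeR adjusted p = 0.155).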
